A study of Homo sapiens and Mus musculus with 76 samples.

Results

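The genes described here are 10 members of the ATF4 integrated stress response, taken by symbol from 23571 human gene symbols: ATF4, DDIT3, ASNS, TRIB3, CHAC1, ATF5, PSAT1, PHGDH, SESN2 and SLC7A5. The rule names them by symbol and uses no measured value, though the list was drawn up with earlier results of these data known. The study compared ways of making full-length cDNA libraries from very small amounts of RNA, and no sample label names a stress or a drug treatment. The 63 human libraries were used, and 13 mouse libraries were not. HEK293T, a human embryonic kidney line that carries the SV40 large T antigen, gave 39 single cells: 7 prepared with Smart-Seq2, 8 with variant 1, 8 with variant 2, 6 with variant 3 and 6 with variant 4 of that protocol, and 4 with the standard SMART-Seq kit. What separates the 4 variants is not stated in the sources used here. Bulk input came from the same line: 3 libraries from 1 ng of total RNA, 3 from 100 pg and 2 from 10 pg, beside 3 libraries from each of 100, 50 and 10 pooled cells. DG-75, a B cell line from a Burkitt lymphoma, gave 7 single cells by Smart-Seq2. The labels name no culture for any library, so each single-cell group is 1 sample and is described with no test, and p-values within the RNA and pool series reflect variation among libraries only, some or all of which may be technical.

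The integrated stress response begins when one of several kinases phosphorylates the alpha subunit of the initiation factor eIF2, which lowers general protein synthesis while raising translation of the ATF4 mRNA through its upstream open reading frames. ATF4 protein, a bZIP transcription factor that binds DNA as a heterodimer, then raises transcription of genes for amino acid synthesis and transport, redox balance, and, under lasting stress, cell death. ATF4 is controlled largely at translation, so its mRNA level need not follow its activity, and its target genes are the usual readout in RNA data.

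ATF4 heterodimers bind a composite C/EBP-ATF element, searched here as TGATGNAA on both strands of the RefSeq promoters (GRCh38.p14, 250 bases before to 50 after each start). All 10 genes had an entry, 17 promoters in all. The element was found in 2 of the 10 genes, ASNS and CHAC1, where 4.46% of all 27305 genes held it, and in 2 of the 17 promoters, where 3.62% of all 35116 promoters did. A gene with no match lacks only these letters in this window. In ASNS it starts 68 bases before the start of transcription, and is known there as part of the nutrient-sensing response element through which amino acid shortage acts. In CHAC1 it lies 209 bases before the start, on the opposite strand. Both stretches are shown because they carry the sequence that the pathway is known for. Each runs 5′ to 3′ on the strand of its gene, with the element in capitals. ASNS is on the minus strand at chr7:97872413-97872532 and CHAC1 on the plus strand at chr15:40953221-40953325.
ASNS: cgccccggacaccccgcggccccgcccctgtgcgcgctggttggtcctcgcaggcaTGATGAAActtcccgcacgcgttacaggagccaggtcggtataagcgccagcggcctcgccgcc
CHAC1: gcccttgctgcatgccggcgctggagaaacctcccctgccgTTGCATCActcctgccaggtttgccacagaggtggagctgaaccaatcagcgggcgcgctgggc
Among the other pathway lists, by genes with an entry, the element was found in 5 of 7 amino acid transporters, 3 of 6 ATF4 partners and related factors, 3 of 8 amino acid enzymes, 2 of 8 further targets, 1 of 13 upstream genes, 0 of 14 unfolded protein response genes outside the ATF4 branch and 0 of 1 tRNA synthetase.

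Depth was 1.875 to 5.553 M gene reads (M is 1000000 reads) in the RNA and pool libraries, 5.286 to 27.876 M in single HEK293T cells and 2.236 to 7.883 M in DG-75 cells. Levels are given as CPM, reads per 1000000 gene reads. All 8 kidney-line markers fixed for HEK293T had reads in its Smart-Seq2 cells, with a summed level of 104 to 337 CPM per cell, against 0.200 to 12.5 CPM in DG-75. All 9 B cell markers had reads in DG-75, with a summed level of 795 to 8530 CPM, against 0.0800 to 23.3 CPM in the HEK293T Smart-Seq2 cells, where MS4A1, CD79B, CD22, PTPRC and CD74 were at 0. The first and second libraries of 100 cells differed by little more than counting error (chi-square per gene 1.81) and may not be independent. Levels of different genes are compared only per length, as the authors' RPKM. For ATF4 the RPKM implies a length of 816 bases where its transcript has 1719, so its RPKM is high relative to the other genes.

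In HEK293T RNA at 1 ng, ATF4 led in RPKM at 269 ± 29.4 (SD, n = 3), a place that depends on its implied length of 816 bases. PHGDH, which commits a glycolytic intermediate to serine synthesis, followed at 157 ± 14.2, and PSAT1, the next enzyme of that route, at 86.6 ± 7.46. ASNS, which makes asparagine, stood at 57.8 ± 6.21. SESN2, a stress-induced inhibitor of mTORC1 that binds leucine, had 21.5 ± 5.39 and SLC7A5, the light chain of the LAT1 transporter for large neutral amino acids, 15.5 ± 0.925. DDIT3, which encodes CHOP, had 10.9 ± 2.96 RPKM and ATF5, a bZIP factor related to ATF4, 10.0 ± 0.508, values within their spread of each other. TRIB3, a pseudokinase that restrains ATF4 and AKT, had 5.23 ± 1.49. CHAC1, which degrades glutathione, was lowest at 1.85 ± 0.648. With the same dependence on length, ATF4 also led in the HEK293T Smart-Seq2 cells, where its mean RPKM was 319 ± 200 (SD over 7 cells), then PHGDH at 172 ± 112, PSAT1 at 149 ± 81.0 and ASNS at 141 ± 86.9. None of these neighbours differed beyond its spread over cells.

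**Figure D1:**
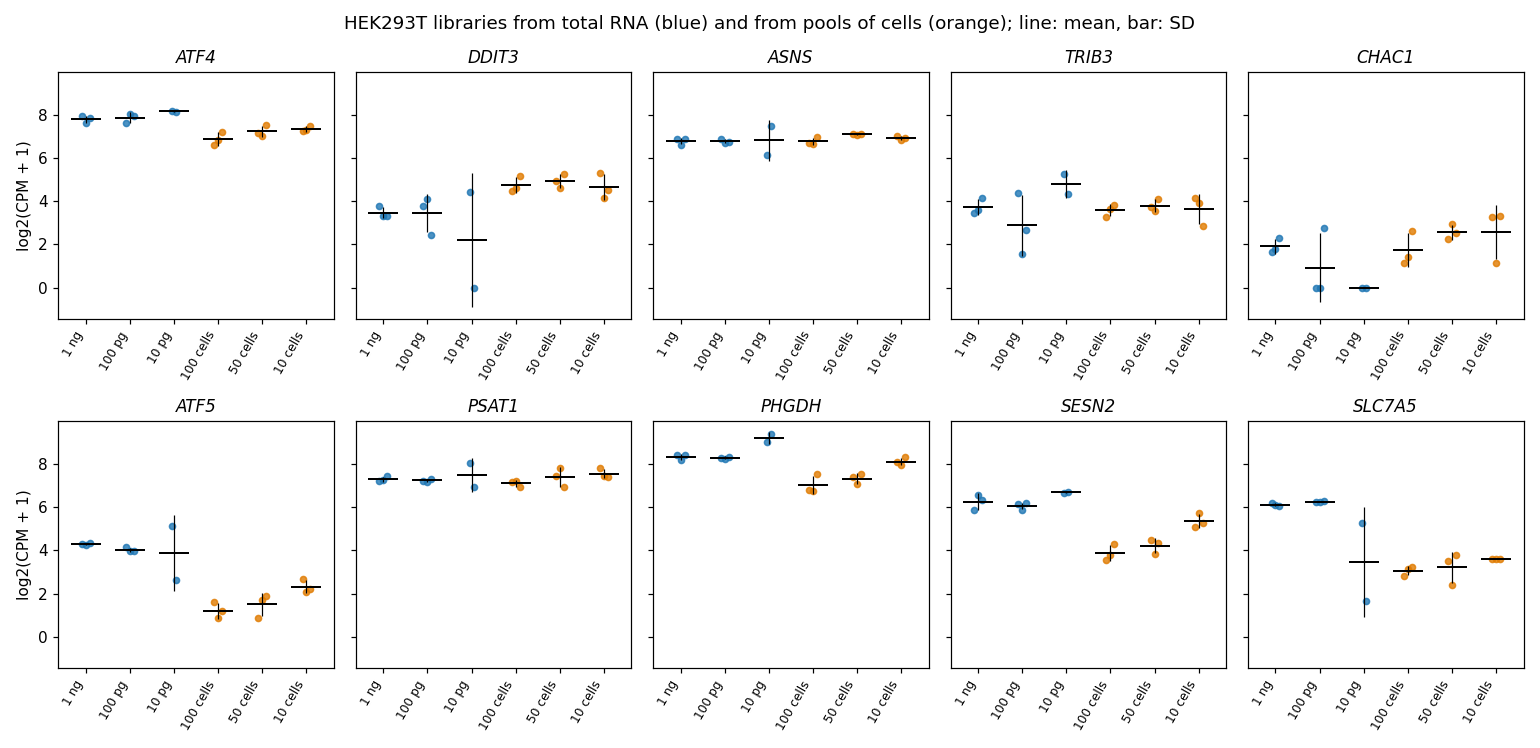
Level of each of the 10 genes, as log2(CPM + 1), in every HEK293T library from total RNA (blue) and from pools of cells (orange). Points are libraries, lines are group means and bars are SDs. ATF5, SESN2 and SLC7A5 are lower in each pool of cells than in each 1 ng library, and DDIT3 is higher. The share of all genes set apart in this way was not counted.

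Pools of cells were compared with RNA of the same line, at 100 cells against 1 ng and at 10 cells against 100 pg, so that the pair differs in the source of the RNA. The labels give no RNA amount for the pools and no batch. Source, RNA preparation, amount of RNA and library batch cannot be told apart in these comparisons. At the higher input SLC7A5, ATF5, SESN2, PHGDH and ATF4 were lower in cells and DDIT3 was higher. Fold changes and adjusted p-values are from edgeR's quasi-likelihood test with Benjamini-Hochberg adjustment over all genes tested, and a gene is called at an adjusted p under 0.05. Of 9 members tested (CHAC1 was too low), 1 was called higher and 5 lower, where 29.7% of all 11487 genes were called higher and 33.1% lower. The median log2 fold change of the 9 was -0.67, against -0.03 over all genes tested. Scaling by library totals in place of TMM moved the median of all genes to -0.23, and fold changes are read against that shift. The totals gave 2502 genes higher and 4535 lower, TMM 3406 and 3802.

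Among the transcription factors, ATF5 had 18.3, 17.8 and 19.0 CPM in the 1 ng libraries and 2.04, 0.825 and 1.26 in the 100-cell libraries. The groups stood far apart, with a log2 fold change of -3.45 ± 0.35 (SE) and an edgeR adjusted p of 1.25e-07. ATF4 had 241, 194 and 228 CPM at 1 ng and 95.7, 112 and 148 in 100 cells. Every 100-cell library was below every 1 ng library, where 65.8% of all genes tested had groups that did not overlap. The log2 fold change of ATF4 was -0.67 ± 0.18 with an edgeR adjusted p of 0.00396. DDIT3 had 12.5, 9.06 and 8.90 CPM at 1 ng and 21.4, 23.4 and 35.1 in 100 cells. Here the order was turned around, and DDIT3 was higher in cells by 1.60 ± 0.27 on the log2 scale (edgeR adjusted p 4.57e-05). With the trend of each library with length and GC content removed, the log2 fold change of DDIT3 was 0.50 and its edgeR adjusted p 0.0644, so that call was lost. It was also lost with all 6 input groups in 1 fit (log2 fold change 1.61, edgeR adjusted p 0.155).

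The transporter gene SLC7A5 had 72.8, 68.3 and 64.7 CPM at 1 ng and 6.11, 7.70 and 8.46 in 100 cells. It had the lowest adjusted p of the members, 5.31e-09 in edgeR, with a log2 fold change of -2.98 ± 0.23. SESN2 had 56.6, 95.2 and 80.4 CPM at 1 ng and 10.6, 12.9 and 18.7 in 100 cells, without overlap, as in 65.8% of all genes tested. Its log2 fold change was -2.21 ± 0.25 (edgeR adjusted p 4.48e-07). PHGDH had 336, 286 and 337 CPM at 1 ng and 111, 107 and 184 in 100 cells. Its 100-cell libraries were all lower, by 1.03 ± 0.20 in log2 terms (log2 fold change -1.03, edgeR adjusted p 0.000175).

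The amino acid enzymes ASNS and PSAT1 and the pseudokinase gene TRIB3 did not pass the test. ASNS had 116, 96.2 and 117 CPM at 1 ng and 104, 99.8 and 124 in 100 cells, with a log2 fold change of 0.22 ± 0.18 (edgeR adjusted p 0.289). PSAT1 had 146, 150 and 170 CPM against 144, 147 and 120, and TRIB3 10.1, 11.2 and 16.9 against 8.76, 11.5 and 13.3. In all 3 genes the groups overlapped. The GC content of the transcripts was 43.9% in ASNS, 44.1% in PSAT1 and 49.7% in DDIT3, and 61.1% in SLC7A5, 61.2% in ATF5, 59.5% in SESN2, 57.5% in PHGDH and 54.9% in ATF4, where the median of expressed genes was 48.7%. TRIB3 had 60.9% and did not pass the test. With the length and GC trend removed, ASNS and PSAT1 turned to -0.58 and -0.85 and were called lower, with edgeR adjusted p of 0.0018 and 1.78e-05. TRIB3 was then called higher, at 1.13 with an edgeR adjusted p of 0.000821. SLC7A5, SESN2 and PHGDH were still called lower, with smaller log2 fold changes of -1.50, -0.90 and -0.47, while ATF4 gave -0.66 and ATF5 -2.85.

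At the lower input 3 members were called, all lower in cells, where 7.81% of 11671 genes were called higher and 11.5% lower. SLC7A5 had 74.3, 75.7 and 76.3 CPM at 100 pg and 11.1, 11.1 and 11.1 in 10 cells. It was again the member with the lowest adjusted p, with a log2 fold change of -2.78 ± 0.25 (edgeR adjusted p 1.28e-05). ATF5 had 16.8, 14.5 and 14.6 CPM against 5.29, 3.15 and 3.71, a log2 fold change of -1.93 ± 0.50 (edgeR adjusted p 0.0171). ATF4 had 193, 265 and 248 CPM against 151, 155 and 178. These groups did not overlap, where 37.8% of all genes tested had no overlap. The log2 fold change of ATF4 was -0.56 ± 0.16 (edgeR adjusted p 0.0233). Of these calls, SLC7A5 was made in all 14 fits, ATF5 in 11 and ATF4 in 8. ATF4 lost its call without replicate 3 or 4 at 100 pg and without replicate 1 or 2 of the 10-cell pools (edgeR adjusted p 0.061 to 0.119). A fit of all 6 input groups also lost it (edgeR adjusted p 0.0789). ATF5 lost its call without replicate 2 or 3 of those pools. With the replicate number as a block ATF4 (edgeR adjusted p 0.0808) and ATF5 (0.107) were not called and CHAC1 (0.00512), at 0 in 2 of the 100 pg libraries, was. DDIT3, SESN2 and PHGDH did not pass: their log2 fold changes were 1.21 ± 0.49, -0.71 ± 0.24 and -0.18 ± 0.13, with edgeR adjusted p of 0.108, 0.0569 and 0.386. The median over the 10 members was -0.02, as was that over all genes.

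**Figure D2:**
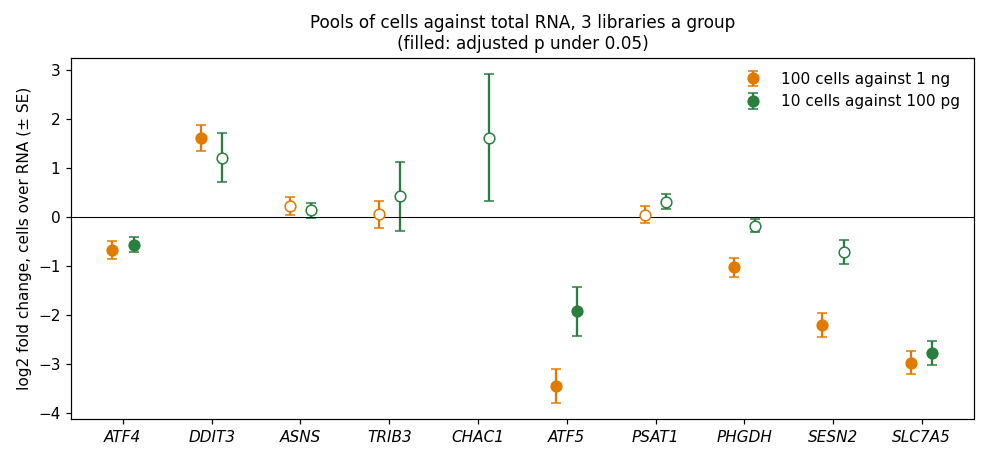
Log2 fold change of each gene in pools of cells over total RNA (y axis, ± SE), at 100 cells against 1 ng (orange) and 10 cells against 100 pg (green), 3 libraries a group. Filled points passed the test; SLC7A5 lies near -3 at both inputs, and CHAC1 could be tested only at the lower input.

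The difference between these inputs was itself tested, as the log2 fold change at the higher input minus that at the lower. It was called for 2 of 10 members, where 17.9% of 12192 genes were called in either direction. SESN2 gave -1.49 ± 0.36 (edgeR adjusted p 0.00674) and PHGDH -0.84 ± 0.25 (edgeR adjusted p 0.0269), so both were further below RNA at 100 cells than at 10. Over leave-one-out fits the count ran from 1 to 3: SESN2 was called in all 12, and PHGDH in 5 of them, losing the call without replicate 1 or 3 at 1 ng, replicate 3 at 100 pg, replicate 1 or 2 of the 100-cell pools, or replicate 1 or 3 of the 10-cell pools. Neither was called with the length and GC trend removed (edgeR adjusted p 0.159 for SESN2 and 0.0967 for PHGDH) or with the replicate number as a block (0.129 and 0.066). Library totals moved the median of all genes from -0.06 to -0.26 and gave 440 genes higher and 1984 lower, TMM 882 and 1306. For ATF4 the difference was -0.10 ± 0.25 and for SLC7A5 -0.19 ± 0.31, neither past the test.

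Within the pools, 100 cells were compared with 10. This comparison shares all its libraries with the difference just given. PHGDH and SESN2 were lower in 100 cells, 2 of 10 members, where 13.6% of 11514 genes were called higher and 17.4% lower. SESN2 had 32.5, 52.5 and 37.7 CPM in 10 cells and 10.6, 12.9 and 18.7 in 100 cells, a log2 fold change of -1.27 ± 0.27 (edgeR adjusted p 0.00294). PHGDH had 269, 247 and 316 CPM in 10 cells and 111, 107 and 184 in 100 cells, a log2 fold change of -0.80 ± 0.20 (edgeR adjusted p 0.00919). No 100-cell library reached a 10-cell library in either gene, where 46.9% of all genes tested had groups without overlap. Scaling by library totals, which moved the median of all genes from -0.05 to -0.26, gave 4 members called, ATF5 and PSAT1 beside these, and 856 genes higher and 3117 lower where TMM gave 1568 and 1999. With the length and GC trend removed SESN2 was no longer called (log2 fold change -0.58, edgeR adjusted p 0.063) and PSAT1 was. Leaving out replicate 1 of the 100-cell pools or replicate 3 of the 10-cell pools left 1 member called. Over the leave-one-out fits 2174 to 4608 of all genes were called. The pools differ by design in the number of cells and so in input, and the part of input was not tested. In these pools a smaller share of cells with a transcript and less of it per cell cannot be told apart from each other or from an effect of input.

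Between 100 and 50 cells 0 of 9 members were called by edgeR, where 0% of 11354 genes were called higher and 0% lower. DESeq2 and limma also called 0 members, and 0 had an unadjusted p under 0.05. The replicate numbers paired these pools by the spread of all genes, and with the number as a block 1582 genes were called but again 0 members. Between 1 ng and 100 pg of RNA, 0 of 9 members were called, 0 had an unadjusted p under 0.05, and DESeq2 and limma called 0, where 0% of 11469 genes were higher at 1 ng and 0.0262% lower. ATF4 differed there by -0.10 ± 0.15 and ASNS by 0.02 ± 0.15 in log2. TRIB3 had 20.003, 1.96 and 5.36 CPM in the 100 pg libraries, and CHAC1 had 0, 0 and 5.85.

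At 10 pg the 2 libraries differed from each other in several members. SLC7A5 had 37.3 and 2.16 CPM, ATF5 33.6 and 5.18, DDIT3 20.3 and 0, and PSAT1 262 and 122, while ATF4 had 292 and 279 and SESN2 101 and 105. PHGDH, at 510 and 667 CPM against 286 to 337 at 1 ng, was the 1 member of 9 called, lower at 1 ng by a log2 fold change of -0.83 ± 0.18 (edgeR adjusted p 0.0349). Of 11087 genes 16.9% were called higher and 1.54% lower at 1 ng, and the median of all genes was 0.24, or -0.05 with library totals. The count was 0 members with any 1 of the 1 ng libraries left out. Leaving out either 10 pg library left no replicate in that group, so the counts of those fits are not given. CHAC1 had no read in either 10 pg library.

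The other genes of the pathway were read from 7 lists. Of 16 genes upstream of ATF4, 7 were higher and 4 lower in 100 cells against 1 ng, where 29.7% of all genes were higher and 33.1% lower. The eIF2 subunit genes EIF2S3 and EIF2S2 were higher, by 1.68 ± 0.19 and 1.45 ± 0.18 in log2 (edgeR adjusted p 5e-07 and 1.65e-06). PPP1R15A, the stress-induced subunit of the eIF2 alpha phosphatase, and GCN1L1, which activates the kinase GCN2, were lower, with log2 fold changes of -3.15 ± 0.25 and -1.83 ± 0.19. Of 8 amino acid transporters 1 was higher, the cystine carrier gene SLC7A11 at 12.1 ± 3.71 against 4.73 ± 1.01 CPM, and 6 were lower. The glutamine carrier gene SLC1A5 had 46.7 ± 11.7 CPM in 100 cells against 452 ± 70.7 at 1 ng (SD, n = 3), and the arginine carrier gene SLC7A1 24.2 ± 2.44 against 98.6 ± 13.008.

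Of 12 tRNA synthetase and export genes 1 was higher and 8 lower, among them AARS at 41.7 ± 11.8 against 178 ± 13.8 CPM and CARS at 28.5 ± 7.23 against 82.1 ± 10.518. NARS was higher, at 302 ± 50.9 against 238 ± 7.54 CPM. Of 12 amino acid and one-carbon enzyme genes tested 1 was higher and 5 lower, CBS at 47.4 ± 7.57 against 227 ± 25.7 CPM and ALDH18A1 at 118 ± 9.10 against 394 ± 4.96. Of 4 partner and related bZIP genes tested, JUN and ATF3 were lower, at 13.3 ± 1.52 against 222 ± 39.03 CPM and 17.2 ± 4.75 against 114 ± 14.4. Both are immediate-early genes in many cells. Of 6 further targets tested 2 were higher, VEGFA and HERPUD1, and 2 lower, TNFRSF10B and STC2. Of 14 unfolded protein response genes outside the ATF4 branch 3 were higher and 4 lower, with the transcription factor gene XBP1 at 209 ± 13.4 against 49.4 ± 8.75 CPM and the chaperone gene HYOU1 at 20.3 ± 5.34 against 169 ± 6.05. EDEM1 was also among those higher and CALR among those lower. Beside these lists, of 6 kidney-line markers tested 1 was higher and 4 lower, and their summed level was 178 to 225 CPM in 100 cells against 374 to 400 at 1 ng. The part of RNA quality in these differences was not tested.

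At 10 cells against 100 pg the counts were 3 higher and 3 lower of the 16 upstream genes, 0 and 4 of 7 transporters tested, 1 and 3 of the 12 tRNA genes, 1 and 2 of 13 enzymes, 0 and 2 of 4 partners, 2 and 1 of 6 further targets, and 0 and 3 of the 14 unfolded protein response genes, where 7.81% of all genes were higher and 11.5% lower. JUN had a log2 fold change of -3.28 ± 0.27 and SLC1A5 of -1.76 ± 0.17. EIF2S3 was higher by 1.10 ± 0.13 and DDIT4, a stress-induced inhibitor of mTORC1, by 1.72 ± 0.30. GOT1, an aspartate aminotransferase gene, was higher at both inputs, by 0.42 ± 0.18 and 0.64 ± 0.14. Also called higher at the lower input were EIF2S2, HERPUD1 and SARS, and lower were GCN1L1, PPP1R15A, SLC7A1, ATF3, MTHFD1L, CBS, TNFRSF10B, EPRS, AARS, CANX and HYOU1.

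In single HEK293T cells the members varied widely between cells of 1 protocol. CHAC1 had no read in 20 of 39 cells, TRIB3 in 8, DDIT3 in 5, SESN2 in 3, ATF5 in 2 and SLC7A5 in 2, while ATF4, ASNS, PSAT1 and PHGDH had reads in all 39. Over the 7 Smart-Seq2 cells CHAC1 had 0 CPM in 4 and 45.1, 61.8 and 138 CPM in the others, with 55.1% of its reads in 1 cell. SLC7A5 ran from 0.757 through a median of 95.8 to 597 CPM, ATF4 from 12.9 through 252 to 503, and DDIT3 from 0.612 through 17.4 to 202. The SD over these cells, in log2(CPM + 1), was 3.35 for CHAC1, 2.74 for SLC7A5, 2.11 for DDIT3 and 1.74 for ATF4, against 0.80 for PHGDH and 0.96 for ASNS. Genes of like mean level had a median SD of 0.71 beside SLC7A5 and 0.69 beside ATF4, and ATF5 had 1.24 against 1.83. Without Smart-Seq2 cell 2, left out after its values were seen, the SD of ATF4 was 0.67 and that of SLC7A5 1.31, each against 0.46 for genes of like mean, and that of DDIT3 was 1.51 against 1.81. The order also differed between protocols: ATF4 had 0.41 against 0.64 in variant 2 and 0.98 against 1.25 in SMART-Seq, and SLC7A5 1.19 against 2.08 in variant 3.

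Thinned to 2 M reads per cell, the SD was 2.55 for SLC7A5, 2.09 for DDIT3 and 1.70 for ATF4, and 4 of 7 cells again had no CHAC1 read. Smart-Seq2 cell 2 stood apart: it had the lowest ATF4 of all 39 cells, the highest DDIT3 (202 CPM, with SMART-Seq cell 3 at 199), 0.757 CPM of SLC7A5 and no read of TRIB3 or CHAC1. Its ASNS, at 236 CPM, was the median of its group, and its SESN2, at 166, was among the highest. The cell also had the lowest depth of the 39, at 5.286 M gene reads, and reads of 10260 genes, the fewest of its group. The part of these properties in its values was not tested.

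**Figure D3:**
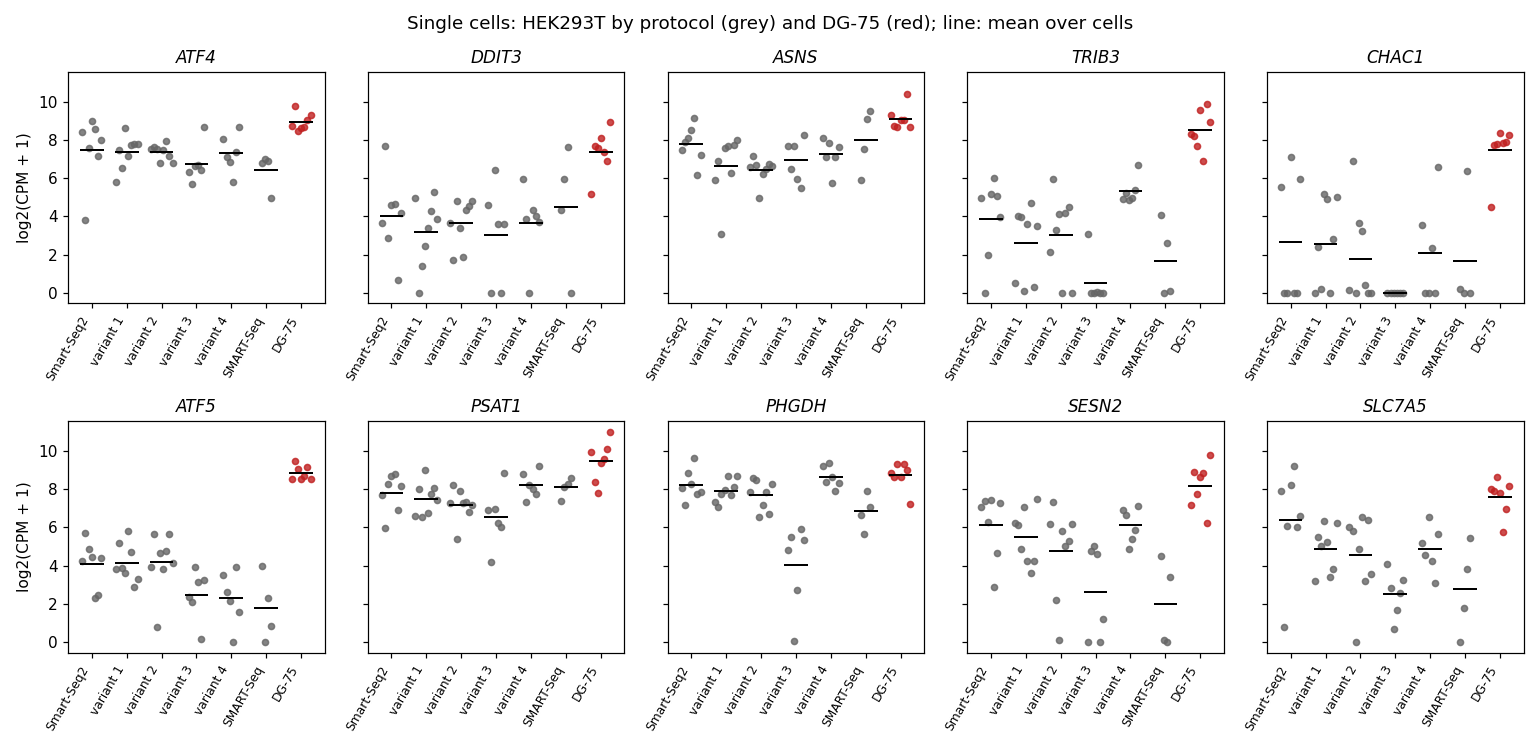
Level of each gene as log2(CPM + 1) in every single cell, for the 6 HEK293T protocol groups (grey) and DG-75 (red). Points are cells and lines are means over cells. All 7 DG-75 cells lie above all 39 HEK293T cells for TRIB3 and ATF5, and the share of all genes with this was not counted. CHAC1 is at 0 in all 6 variant 3 cells.

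The protocol groups were each set beside the 7 Smart-Seq2 cells, as the ratio of summed reads with 1 CPM added to both, among genes with at least 5 CPM in the higher group. With 1 sample a group there is no replicate check, and no test was made. These comparisons share the Smart-Seq2 cells, so their ratios are given side by side only. For SMART-Seq 6 of 10 members were lower by more than 2-fold and 1 higher, where 38.5% of 11254 genes were lower and 19.3% higher, and the median log2 ratio was -1.51 over members and -0.43 over all genes. SESN2 had 21.8, 0.0762, 0 and 9.81 CPM in the 4 SMART-Seq cells and SLC7A5 0, 2.44, 13.1 and 43.0. Summed over cells, SESN2 stood at 7.47 CPM (exact 95% Poisson interval 6.79 to 8.20, for counting error only) against 107 (105 to 109), and SLC7A5 at 16.3 (15.3 to 17.4) against 219 (216 to 223). DDIT3 was the member that was higher, 73.8 CPM against 27.2, but its 4 cells had 19.0, 61.6, 199 and 0 CPM, and without SMART-Seq cell 3 the log2 ratio turned from 1.41 to -0.14. ASNS, at 59.0, 187, 546 and 722 CPM, and PSAT1, at 166, 273, 313 and 391, were within 2-fold.

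Variant 3 had 8 members lower by more than 2-fold and 0 higher, where 45.3% of 10891 genes were lower and 18.9% higher. The median log2 ratio was -1.89 over members and -0.68 over all genes, and with TMM factors in place of totals 5 members passed, ATF4, ATF5 and PSAT1 falling within 2-fold and DDIT3 turning to 0.52. PHGDH ran from 0.0421 through a median of 33.5 to 59.5 CPM in the 6 cells, below the lowest Smart-Seq2 cell at 146. The share of all genes for which this held was not counted. SLC7A5 ran from 0.632 through 5.496 to 16.001 CPM. TRIB3 had no read in 4 cells, and 98.8% of its 84 reads came from 1 cell. CHAC1 had no read in the 6 cells together, which allows a level of up to 0.0298 CPM from a floor of 3 reads over the group, so that the summed reads of the Smart-Seq2 cells, at 42.5 CPM, were at least 1426-fold higher. Those reads came from 3 of 7 cells, and the other 4 had none, so the cells of the groups overlapped at 0. DDIT3 (log2 ratio -0.04) and ASNS (-0.96) were within 2-fold. Variant 3 cells had reads of 7443 to 10259 genes against 10260 to 12604 in Smart-Seq2 cells, and SMART-Seq cells 8596 to 10992. The summed level of the kidney-line markers was 15.3 to 231 CPM in variant 3 and 3.95 to 2044 CPM in SMART-Seq cells. The part of these properties in the ratios was not tested.

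Variants 1, 2 and 4 stood closer to Smart-Seq2. Variant 1 had 3 members lower and 0 higher, where 8.02% of 11053 genes were lower and 6.3% higher. Variant 2 likewise had 3 lower and 0 higher, where 10.3% of 11072 genes were lower and 7.89% higher. Variant 4 had 2 lower and 0 higher, where 9.45% of 11233 genes were lower and 10.1% higher. SLC7A5 was lower in all 3, at 40.4 (39.1 to 41.7), 46.4 (44.7 to 48.1) and 35.5 (34.2 to 36.9) CPM against 219. Its cells ran up to 80.8, 93.9 and 91.5 CPM, within the Smart-Seq2 range. CHAC1 and TRIB3 were the other members lower in variant 1, CHAC1 and ASNS in variant 2 and ATF5 in variant 4. Without Smart-Seq2 cell 4 CHAC1 was within 2-fold in variants 1 and 2, at log2 ratios of -0.51 and -0.28, and in variant 2 also without its cell 1, 7 or 8 (-0.94, -0.91 and -0.97). The count past 2-fold in variant 2 was 5 without its cell 2 or without Smart-Seq2 cell 3 or 6. In variant 4 it was 4 without Smart-Seq2 cell 5. With 1 cell left out, 1994 to 2223 of all genes were past 2-fold in variant 2 and 2195 to 2432 in variant 4. TRIB3 was highest in variant 4, where every cell had a read, from 28.5 through 33.5 to 102 CPM, against 27.6 CPM summed over the Smart-Seq2 cells.

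**Figure D4:**
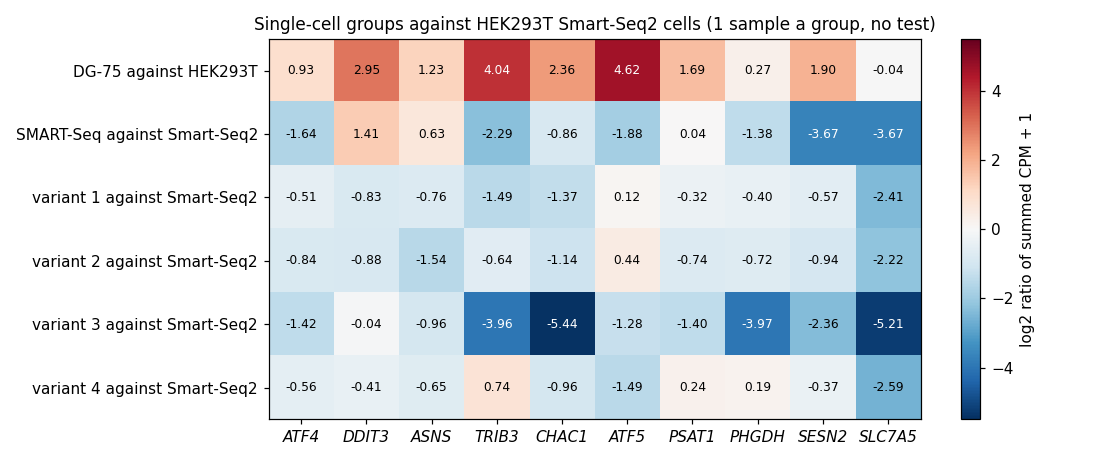
Log2 ratio of summed CPM + 1 for each gene (columns) in DG-75 cells and in each other HEK293T protocol group (rows) over the 7 HEK293T Smart-Seq2 cells; red is higher and blue lower, and each group is 1 sample. ATF5 and TRIB3 have the highest ratios in DG-75, 4.62 and 4.04, and SLC7A5 is below 0 in every row.

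DG-75 cells, prepared with the same protocol, had higher levels in CPM than HEK293T cells for most members. Together the 10 genes took 3384, 4176 and 6098 CPM at the lowest, median and highest DG-75 cell, and 678, 1412 and 2895 CPM in the HEK293T Smart-Seq2 cells. By summed reads 7 of 10 members were higher by more than 2-fold and 0 lower, where 25.6% of 11800 genes were higher and 30.6% lower. The median log2 ratio was 1.80 over members and -0.09 over all genes. The ratios compare these cells of 2 lines, and line, culture and library batch cannot be told apart.

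ATF5 ran from 365 through 416 to 716 CPM in DG-75 and from 4.05 through 19.9 to 50.9 CPM in HEK293T Smart-Seq2 cells. Summed, it was 494 (487 to 502) against 19.2 (18.2 to 20.2) CPM, a log2 ratio of 4.62. TRIB3 ran from 117 through 320 to 956 CPM against 0, 30.0 and 63.7, a log2 ratio of 4.04. For these 2 members all DG-75 cells were above all HEK293T Smart-Seq2 cells, where 2.47% of genes showed this. The highest HEK293T cell of any protocol had 55.3 CPM of ATF5 and 102 of TRIB3, still below the lowest DG-75 cell. The share of all genes apart in this way from all 39 HEK293T cells was not counted.

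DDIT3 ran from 35.4 through 190 to 492 CPM in DG-75, and its log2 ratio was 2.95. Its range overlapped that of the HEK293T Smart-Seq2 cells through their cell 2. Over all protocols 6 of 39 HEK293T cells were above the lowest DG-75 cell. CHAC1 had reads in all 7 DG-75 cells, at 21.4 CPM in cell 1 and 209 to 327 in the others, a log2 ratio of 2.36 with 222 (217 to 227) against 42.5 (41.1 to 44.0) CPM. Of the 7 cells 6 were above all 39 HEK293T cells, and the share of all genes with this was not counted. SESN2 ran from 74.3 through 402 to 879 CPM (log2 ratio 1.90) and PSAT1 from 225 through 774 to 2071 (1.69). ASNS ran from 404 through 521 to 1348 CPM, against 69.9, 236 and 561 in HEK293T, a log2 ratio of 1.23 with overlapping cells. Without DG-75 cell 6 the ratio of ASNS was 0.87, within 2-fold. The other 6 members stayed past 2-fold when any 1 of the 14 cells was left out.

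ATF4 itself was at 562 (555 to 570) against 295 (291 to 299) CPM, a log2 ratio of 0.93, just short of 2-fold. PHGDH had 435 against 361 CPM and SLC7A5 214 against 219, log2 ratios of 0.27 and -0.04. In both genes 0 of 7 DG-75 cells exceeded the highest HEK293T cell of any protocol. Above the lowest DG-75 cell were 25 of 39 HEK293T cells for PHGDH and 13 of 39 for SLC7A5. Per length, ATF4 led in DG-75 at a mean RPKM of 645 ± 227 (SD over 7 cells), a place that depends on its implied length of 816 bases. PSAT1 followed at 506 ± 355 and ASNS at 351 ± 194, and SLC7A5 was lowest at 52.3 ± 25.5. ATF5 came next in DG-75, at 273 ± 78.5, and was above only TRIB3 in the HEK293T Smart-Seq2 cells, at 10.8 ± 9.12, within their spread. In DG-75 the SD over cells of ATF4 was 0.46 and that of ATF5 0.38 in log2(CPM + 1), below the 0.72 of genes of like mean. ASNS had 0.61 and PHGDH 0.716 against 0.721, and DDIT3 1.16 against 1.19. Above their like were TRIB3 at 1.06, PSAT1 at 1.08 and SESN2 at 1.20 against 0.72. So were CHAC1 at 1.34 and SLC7A5 at 0.95, each against 0.92.

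Other pathway genes in the same comparison were higher by more than 2-fold in 7 of 10 further targets with at least 5 CPM, 6 of 12 tRNA synthetase and export genes, 6 of 13 amino acid and one-carbon enzymes, and 4 of 8 transporters, and lower in 1, 0, 1 and 0, where 25.6% of all genes were higher and 30.6% lower. Leaving out each of the 14 cells in turn, chosen after the values were seen, 5, 5, 4 and 3 of those higher stayed so throughout, as did 1691 of the 3016 genes higher over all. GDF15, a secreted stress cytokine, had 90.7 CPM in DG-75 and no read in the HEK293T Smart-Seq2 cells, and was at least 2363-fold higher against a floor of 3 reads over that group. INHBE had 57.9 against 0.141 CPM, AARS 589 against 129 and CARS 327 against 70.6. Of the enzymes, PSPH, the last step of serine synthesis, had 165 against 46.0 CPM and ALDH18A1, of proline synthesis, 57.6 against 197. ALDH1L2, FGF21 and VEGFA were counted as higher, but 99.2%, 92.6% and 84.9% of their DG-75 reads came from 1 cell. SLC3A2, the heavy chain that pairs with SLC7A5, had 1341 against 337 CPM, where SLC7A5 had a log2 ratio of -0.04, and the glycine carrier gene SLC6A9 had 53.7 against 14.1. STC2, a secreted glycoprotein gene, went the other way, at 0.218 against 97.1 CPM. Of the 16 upstream genes 2 were higher and 4 lower. PPP1R15A had 325 against 22.3 CPM. The kinase gene EIF2AK3, which encodes PERK, had 27.4 against 5.91 CPM, with 68.1% of its DG-75 reads in cell 7, and without that cell its log2 ratio was 0.72. IMPACT, an inhibitor of GCN2 activation, had 0.0818 against 94.3 CPM, and EIF2B3 30.6 against 114. Of 14 unfolded protein response genes outside the ATF4 branch 4 were higher and 1 lower. DNAJB9 had 165 against 10.547 CPM, EDEM1 122 against 9.28 and SDF2L1 37.7 against 84.9. The median log2 ratio of the 14 was -0.02. With each cell left out in turn, 3 of the 4 higher and 0 of the 1 lower stayed so. SDF2L1 was within 2-fold without DG-75 cell 6 or 7. Of 6 partner genes 2 were higher, JDP2 and ATF3, and 1 lower, JUN. ATF3 had 114 against 35.4 CPM. JDP2 had 94.6% of its DG-75 reads in cell 2 and 1.70 CPM without it, and JUN was within 2-fold without Smart-Seq2 cell 7.

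Covariation between members was described over the 39 HEK293T cells, with log2(CPM + 1) centred within each protocol group. The cells share protocol, culture and depth effects, and no test was made. ATF4 and PSAT1 had the highest Pearson's r, 0.65, then PSAT1 with SLC7A5 at 0.54, ASNS with PSAT1 at 0.46 and ATF4 with CHAC1 at 0.43. Of 45 pairs 7 had an r above 0.4 (15.6%), where 5.91% of all pairs of 6189 other genes and the members that met the level limits did. The median was 0.13 over member pairs and 0.04 over all pairs. The member pairs include CHAC1, TRIB3 and DDIT3, which had no read in 20, 8 and 5 of the 39 cells. They also include ATF5, with a mean below 20 CPM, and all of these missed those limits. The shares and medians are therefore of unlike sets. DDIT3 ran apart, with -0.44 to SLC7A5 and 0.03 to ATF4, and SESN2 had 0.41 to ATF5 and -0.05 to ATF4. Without Smart-Seq2 cell 2, left out after its values were seen, 5 pairs were above 0.4: ATF4 with PSAT1 gave 0.59, ATF4 with SLC7A5 went from 0.41 to 0.09, and ATF4 with DDIT3 from 0.03 to 0.34.

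**Figure D5:**
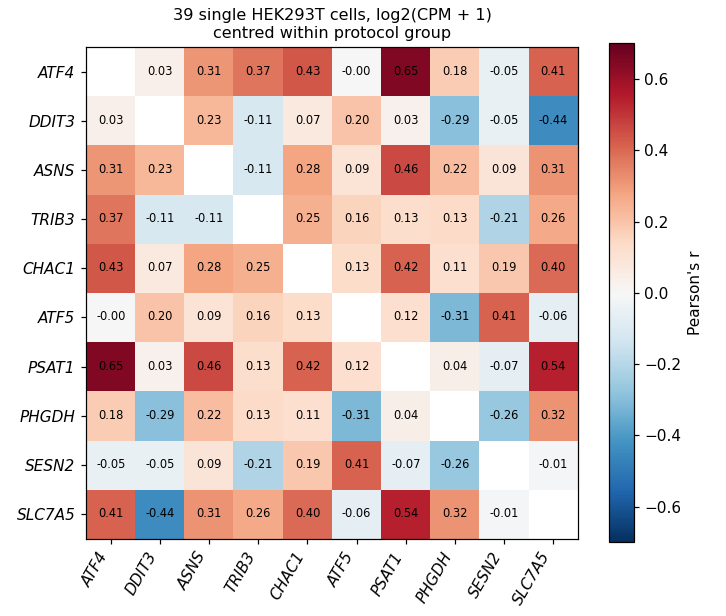
Pearson's r between each pair of the 10 genes over 39 single HEK293T cells, from log2(CPM + 1) centred within protocol group; red is positive and blue negative. ATF4, PSAT1, CHAC1, ASNS and SLC7A5 form the redder block, and DDIT3 with SLC7A5 is lowest at -0.44.

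Among the 6189 other genes with at least 20 CPM on average and a read in at least 35 of the cells, the 6 most like the mean of the members were DPM1 (r = 0.68), NDUFB9 (0.65), SLC38A1 (0.65), BCAT1 (0.63), EIF4EBP1 (0.63) and MTHFD2 (0.61). SLC38A1, BCAT1 and MTHFD2 stand in the lists of pathway genes used here. The median r over these genes was 0.13, and the member mean had an r of 0.44 with the number of genes with a read and 0.37 with log2 depth, whose part in these values was not tested. Without Smart-Seq2 cell 2 the 6 values lay between 0.56 and 0.63.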

How the data were processed

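Per the file headers, each deposited human table lists genes with a read count and the RPKM made by the authors. STAR (version not given) and GRCh37 (hg19) are named in the submitters' processing notes. How reads were counted, with what strand setting, and how copies share reads is not stated. The pseudogenes SLC7A5P1 and SLC7A5P2 held 0.914% and 2.20% as many reads as SLC7A5. Entries of a symbol were summed. Since amplified reads have no molecular identifiers, intervals (95%) and floors (3 reads) cover only counting error.

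RNA and pool libraries were tested with edgeR 4.0.16 (two-sided quasi-likelihood F test, TMM, filterByExpr, adjusted p under 0.05) in R 4.3.3, checked on simulated data; an SE is the absolute log2 fold change over the root of F. Single-cell ratios add 1 CPM and use genes with at least 5 CPM in the higher group. Transcript length and GC content come from GENCODE transcripts and covered 98.9% of genes with a mean of 1 CPM. Alternatives used DESeq2 1.42.0 and limma 3.58.1 on log2(RPKM + 1). Same-numbered pools of 100 and 50 cells deviated together (correlations 0.157, 0.525 and 0.691), which pairs them; 100 and 10 cells did not throughout (0.082, 0.249 and 0.396). Single-cell groups were summed. Members and lists were chosen with earlier results of these data known. All members are named. Of each other list, the 2 genes with the lowest adjusted p, or the largest ratio, in each direction are named; in DG-75, FGF21 and VEGFA were named after their values were seen.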

Additional observations from a re-analysis of the deposited data

Results flagged for a closer look

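Single cells far from the others of their group were found 13 times in 69 sets of member and group. The measure was the share of the range of log2(CPM + 1) that separates the extreme cell from its nearest neighbour. Its cut-off is set for about 1 in 20 among independent, normally spread values. These sets share cells, and some hold many cells at or near 0, so the count is not set against chance. In HEK293T Smart-Seq2 cell 2, ATF4 (0.652 of the range) and SLC7A5 (0.618) were low, at 12.9 CPM with the next cell at 144, and 0.757 CPM with the next at 63.5. In DG-75, ASNS was high in cell 6 (0.637), CHAC1 low in cell 1 (0.834) and PHGDH low in cell 7 (0.678, 149 CPM with the next at 401). In SMART-Seq, ATF4 was low in cell 4 (0.9) and CHAC1 high in cell 3 (0.967), at 81.5 CPM with the next at 0.157. In variant 1, ASNS was low in cell 3 (0.58, 7.60 CPM with the next at 59.9). In variant 2, ASNS was low in cell 4 (0.58) and ATF5 low in cell 3 (0.617). In variant 3, ATF4 was high in cell 6 (0.664, 412 CPM with the next at 103) and TRIB3 high in cell 1 (0.983), and in variant 4 TRIB3 was high in cell 6 (0.723, 102 CPM with the next at 40.7).

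The difference between pools of cells and RNA differed between inputs for PHGDH (log2 -0.84) and SESN2 (log2 -1.49), by the edgeR interaction test above. These were 2 of 10 members, where 17.9% of 12192 genes were called in either direction. Neither gene was called with the length and GC trend removed or with the replicate number as a block.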

How the results depend on the processing

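Of 81 values under settings other than leaving out a library, 71 stayed within the limit set for them. For counts of members the limit was 1.5 times. For the median SD between cells, given below, it was the SD of that value between members. Members called at 100 against 10 cells were 4 with library totals (main 2). At 1 ng against 10 pg they were 2 with DESeq2, 2 with no filter, 2 with all 6 groups in 1 fit and 0 with the replicate block (main 1). For the difference between inputs they were 1 with all groups, 1 with the length and GC trend removed and 1 with the replicate block (main 2), the last being CHAC1, at 0 in several libraries. Members past 2-fold were 5 in variant 3 with TMM factors (main 8) and 1 in variant 4 with 10 CPM added (main 2). Leaving out 1 library gave 1 to 3 members at 10 cells against 100 pg and 1 to 2 at 100 against 10 cells. At 1 ng against 10 pg it gave 0 with any 1 of the 1 ng libraries left out. The range was 1 to 3 for the difference between inputs, 2 to 5 in variant 2 and 2 to 4 in variant 4. Over all genes 1252 to 2264 were called at 10 cells against 100 pg and 1385 to 2918 for the difference between inputs. Values that turned, where the value before or after was past its threshold, were, with the length and GC trend removed at 100 cells against 1 ng, ASNS at -0.58 and PSAT1 at -0.85, at 1 ng against 10 pg DDIT3 from -0.92 to 7.98, ASNS from -0.62 to 0.71 and ATF5 from -0.80 to 1.89 over fits without a library, and DDIT3 in SMART-Seq from -0.14 without SMART-Seq cell 3 to 2.27 without Smart-Seq2 cell 2. The cause was not tested. The median over members of the SD between cells, 1.27, was 0.881 with 10 CPM added and 1.295 in thinned cells. The replicate block gave counts within 1.5 times in the other comparisons, but not of the same members at 10 cells against 100 pg (SLC7A5 and CHAC1). Over all genes the replicate block called 1582 at 100 against 50 cells where the fit without it called 0. At 1 ng against 10 pg it called 0 genes (main 2044). CHAC1 was at 0 in 24 of 63 libraries, 20 of them single HEK293T cells.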
